A study of Homo sapiens with 6 samples.

Results

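The platelet-derived growth factor (PDGF) family was followed in SW872 cells, an established human liposarcoma line, as the 7 genes whose symbol in the count table was PDGFA, PDGFB, PDGFC, PDGFD, PDGFRA, PDGFRB or PDGFRL. They are 7 of the 57773 genes of the table. The family was chosen with the response to Apatinib already known, and PDGFB was among the genes that differed most. The differences of the 7 genes between the groups are therefore descriptive and carry no test.

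PDGF ligands are secreted dimers of A, B, C or D chains. They bind the receptor tyrosine kinases PDGFRα and PDGFRβ on mesenchymal cells, such as fibroblasts, pericytes and adipocyte progenitors. Binding pairs the receptors, which phosphorylate each other and recruit adaptors of the RAS-ERK, PI3K-AKT, PLCγ and STAT pathways. A chains act mainly through PDGFRα, whereas B chains bind both receptors. C and D chains are secreted as latent forms that proteases activate. PDGFRL is a receptor-like protein without a kinase domain. A cell that makes both a ligand and its receptor can stimulate itself, which is why the family is followed in sarcomas.

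Apatinib is a tyrosine kinase inhibitor developed against VEGFR-2. The treated group had 3 replicates cultured with 18 μM Apatinib for 24 h, and the control group had 3 untreated replicates, for which the labels name no vehicle. All 6 cultures were SW872 cells grown in RPMI-1640 with serum, without any genetic change by the study, so that the comparison covers 1 cell line, 1 dose and 1 time point. RNA was sequenced, and total counts lay between 17043314 and 22067558 per library. The chi-square of counts per gene, about 1 under sampling noise alone, was 2.27 between control replicates 1 and 2 and 18.2 to 44.5 for the other pairs of a group. Control replicates 1 and 2 were thus far closer than any other pair, yet the tests below treat them as independent. Whether they are was not tested. With these controls summed as 1 sample, 292 of 16731 tested genes met the criteria given below, against 1866 of 16290 with all replicates. The cells carried mesenchymal markers (7 of 7 with counts, 2978 to 3234 CPM in sum in the control and 3780 to 4253 CPM with Apatinib), of which none was called. Among them COL1A2, COL5A1, NT5E and CD44 had an edgeR FDR of 0.0394, 0.0383, 0.0491 and 0.0425 with log2 fold changes of 0.45 to 0.47, higher with Apatinib but under the fold limit used for calls. Of 6 adipocyte markers, ADIPOQ and FABP4 were at 0 counts in every library and 4 of the 6 had at most 3 counts, whereas PPARG, the regulator of adipocyte differentiation, had at least 859. In bulk RNA a change in the number of cells that express a gene and a change in RNA per cell cannot be told apart.

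Values are given as counts, as CPM (counts scaled to library size with the TMM factors of edgeR) or as FPKM (fragments scaled to transcript length and depth, deposited by the authors). A gene was called when the quasi-likelihood test of edgeR gave a false discovery rate (FDR) under 0.05 and its log2 fold change exceeded 0.5 in either direction, over the 16290 genes that passed the filter on low counts. A log2 fold change above 0 means a higher level with Apatinib. Of the 7 genes, 6 were tested, each with at least 10 counts in every library, and PDGFD was left out for low counts. PDGFA and PDGFB met the criteria, both in the higher direction, and PDGFC, PDGFRA, PDGFRB and PDGFRL did not. Over all tested genes, 11.5% were called, 5.97% higher and 5.48% lower. In CPM the groups did not overlap for PDGFA, PDGFB, PDGFC and PDGFRL, each of them higher with Apatinib, against 33.2% of all tested genes without overlap, 17.5% higher and 15.7% lower. Since the family was chosen on this contrast, nothing is read from these counts.

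**Figure D1:**
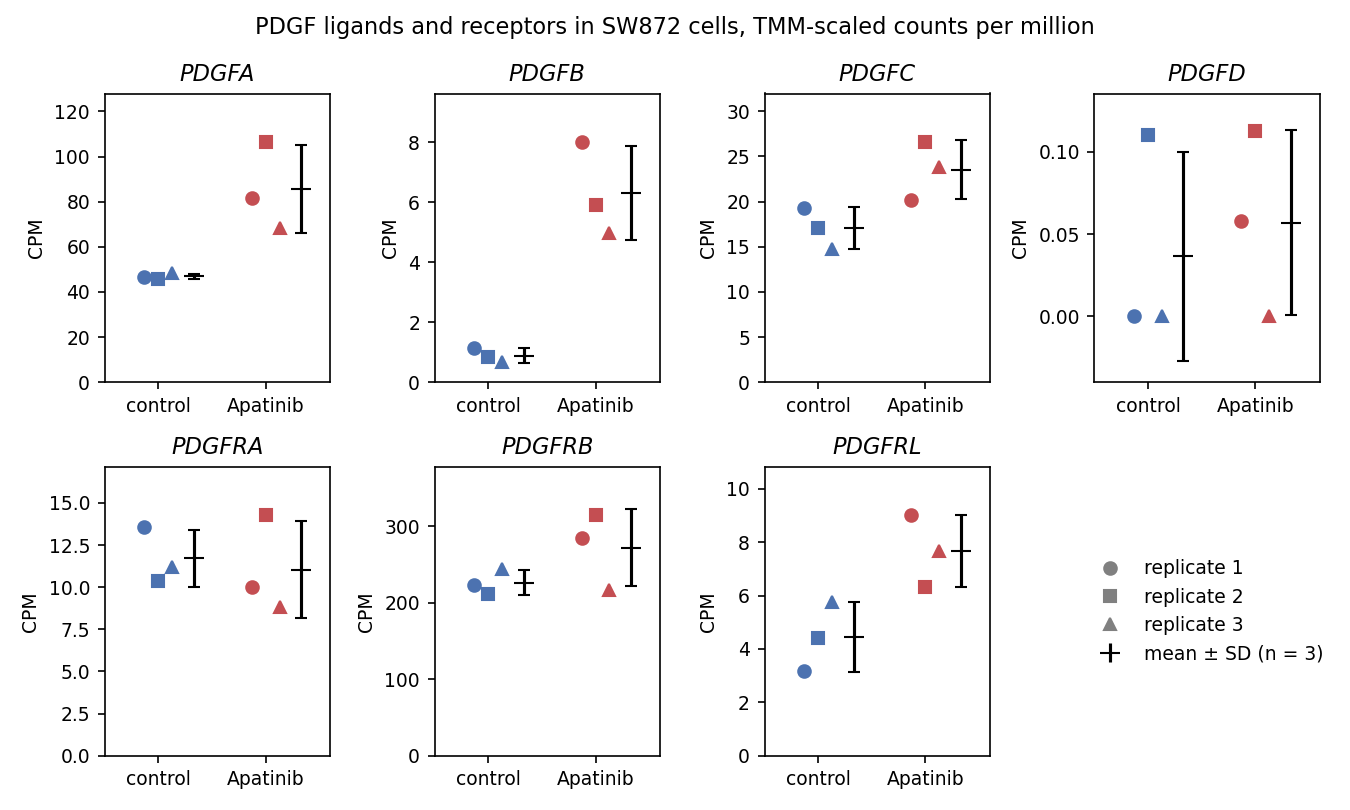
CPM of the 7 genes in each control (blue) and Apatinib (red) replicate, on linear axes that differ between panels, with the mean ± SD of 3 replicates in black. PDGFA, PDGFB, PDGFC and PDGFRL show all 3 Apatinib replicates above all 3 controls, PDGFRA and PDGFRB overlap, and PDGFD lies at or below 0.113 CPM throughout.

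Among the ligands, PDGFB (ENSG00000100311) differed most. It encodes the B chain, the cellular counterpart of the viral oncogene v-sis. PDGFB had 20, 15 and 15 counts in control replicates 1 to 3 and 138, 105 and 87 counts in Apatinib replicates 1 to 3. Every Apatinib replicate was thus far above every control, at a similar depth. In CPM the level was 0.889 ± 0.240 in the control and 6.31 ± 1.56 with Apatinib (SD, n = 3 each). The log2 fold change was 2.84 (SE 0.286), or 7.13-fold, which ranked 8 from the top among all tested genes. Its control level was nevertheless low, with a mean FPKM below that of all but 2.44% of the tested genes, and the fold rests on 15 to 20 control counts per library. The log2 fold change of PDGFB lay between 2.63 and 3.05 when any 1 replicate was left out. On the log2(FPKM + 1) scale it was 0.92, because a pseudocount of 1 exceeds every control value.

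PDGFA (ENSG00000197461) encodes the A chain and was the most abundant ligand. It had 811, 832 and 1052 counts in the control replicates and 1405, 1889 and 1191 counts with Apatinib. The 3 controls were within 45.7 to 48.2 CPM of each other once scaled, while the Apatinib replicates spread from 68.2 to 107 CPM with replicate 2 highest. The mean was 46.9 ± 1.22 CPM in the control and 85.5 ± 19.5 CPM with Apatinib (SD, n = 3 each), so that the log2 fold change was 0.87 (SE 0.158). Omitting Apatinib replicate 2 gave 0.68, and omitting Apatinib replicate 3 gave 1.01. PDGFA no longer met the criteria without control replicate 1 (0.86), without control replicate 2 (0.84) or with these controls summed as 1 sample (0.85), although its fold change hardly moved.

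PDGFC (ENSG00000145431) encodes a chain that is secreted with a CUB domain and needs cleavage before it binds PDGFRα. Its counts were 335, 310 and 321 in the control and 346, 472 and 417 with Apatinib, which gave 19.3, 17.1 and 14.7 CPM and 20.1, 26.6 and 23.9 CPM. The lowest Apatinib replicate (20.1 CPM) was just above the highest control (19.3 CPM), and in FPKM the groups overlapped. The log2 fold change was 0.47 (SE 0.159), and PDGFC met neither the fold limit nor the FDR limit. PDGFC met the criteria in none of the 14 alternative fits. PDGFD (ENSG00000170962), which encodes a latent ligand of PDGFRβ, had 0, 2 and 0 counts in the control and 1, 2 and 0 with Apatinib. A count of 3, which corresponds to 0.137 to 0.175 CPM in these libraries, was not reached in any of them, so no fold change is given and PDGFD was not detectable above that level.

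Of the receptors, PDGFRB (ENSG00000113721), the receptor for B and D chains, was the most abundant member of the family. It had 3875, 3835 and 5323 counts in the control and 4898, 5574 and 3779 with Apatinib. Apatinib replicate 3 (216 CPM) was within the control range of 211 to 244 CPM, and replicates 1 and 2 (285 and 315 CPM) were above it. The mean was 226 ± 16.6 CPM in the control and 272 ± 50.4 CPM with Apatinib (SD, n = 3 each), so that the log2 fold change was 0.27 (SE 0.147), and it ranged from 0.15 to 0.41 with 1 replicate left out.

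PDGFRA (ENSG00000134853), the receptor that all chains but D bind, had 235, 188 and 245 counts in the control and 172, 253 and 154 with Apatinib. Apatinib replicate 2 (14.3 CPM) was the highest of the 6 libraries and Apatinib replicate 3 (8.81 CPM) the lowest, so the groups overlapped fully. Its log2 fold change was -0.08 (SE 0.202), and it changed sign when single replicates were left out: it was -0.31 without Apatinib replicate 2, and 0.06 when Apatinib replicate 3 was omitted. In GENCODE 29 its exons are shared in part with a gene on the same strand, AC058822.1, and how reads in shared exons were counted is not given in the sources used here.

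PDGFRL (ENSG00000104213), the receptor-like gene, had 55, 80 and 126 counts in the control and 155, 112 and 134 with Apatinib. In CPM its highest control (5.77) was just below its lowest Apatinib replicate (6.32). The mean was 4.45 ± 1.30 CPM in the control and 7.67 ± 1.35 CPM with Apatinib (SD, n = 3 each), so that the log2 fold change was 0.78 (SE 0.238). Although this was close to the fold change of PDGFA, the spread was wider, and PDGFRL met the criteria in 5 of the 14 alternative fits, including DESeq2, edgeR without the filter on low counts and edgeR with a replicate block. It also met them without Apatinib replicate 2 (0.90) and without control replicate 3 (1.02). Its exons overlap those of MTUS1 on the opposite strand in GENCODE 29, and whether the counting used strand is not given in the sources used here.

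**Figure D2:**
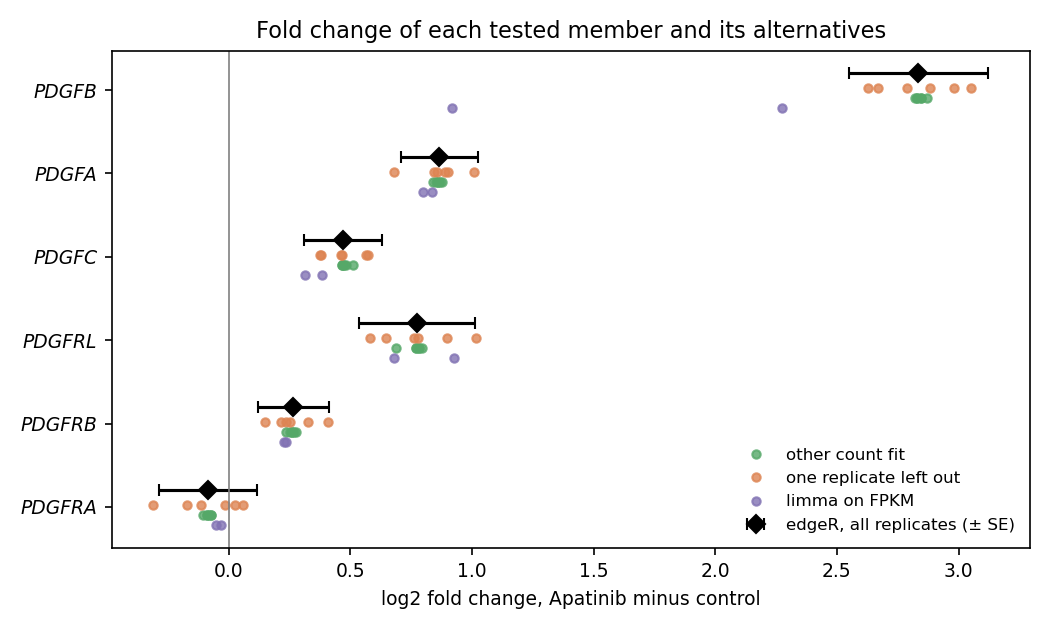
Log2 fold change (Apatinib minus control) of the 6 tested genes with its SE from edgeR with all replicates (black), and the same value with 1 replicate left out, with other fits to the counts and with limma on FPKM. PDGFB lies at 2.84 and moves to 0.92 on the log2(FPKM + 1) scale, and PDGFRA is the only 1 of the 6 genes whose values fall on both sides of 0.

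The members did not all vary together within the Apatinib group, although PDGFA, PDGFRA and PDGFRB shared the order replicate 2, 1, 3. Apatinib replicate 2 had the highest CPM of the group for PDGFA, PDGFC, PDGFRA and PDGFRB, whereas replicate 1 was highest for PDGFB and PDGFRL. Replicate 3 was lowest for PDGFA, PDGFB, PDGFRA and PDGFRB. In the control group, replicate 1 was highest for PDGFB, PDGFC and PDGFRA but lowest for PDGFRL.

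Levels of different genes were compared per transcript length, as FPKM. In the control the order was PDGFRB (28.9 ± 1.87 FPKM), PDGFA (14.2 ± 0.561), PDGFC (3.44 ± 0.612), PDGFRA (1.98 ± 0.321), PDGFRL (1.92 ± 0.673), PDGFB (0.172 ± 0.0403) and PDGFD (0.00568 ± 0.00985), each as mean ± SD of 3 replicates. Of the 6 neighbouring pairs in this order, 5 had control values that did not overlap, and PDGFRA and PDGFRL could not be told apart. With Apatinib, 3 of the 6 neighbouring pairs were apart. The FPKM values of PDGFRB (27.6 to 40.8) and PDGFA (20.8 to 33.0) overlapped, as did those of PDGFC (3.45 to 5.47) and PDGFRL (3.05 to 4.05) and those of PDGFRA and PDGFB. PDGFRL (3.60 ± 0.512 FPKM) then ranked above PDGFRA (1.95 ± 0.640 FPKM), without overlap. PDGFB, at 1.22 ± 0.239 FPKM, reached the range of PDGFRA but stayed below PDGFA in every replicate.

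**Figure D3:**
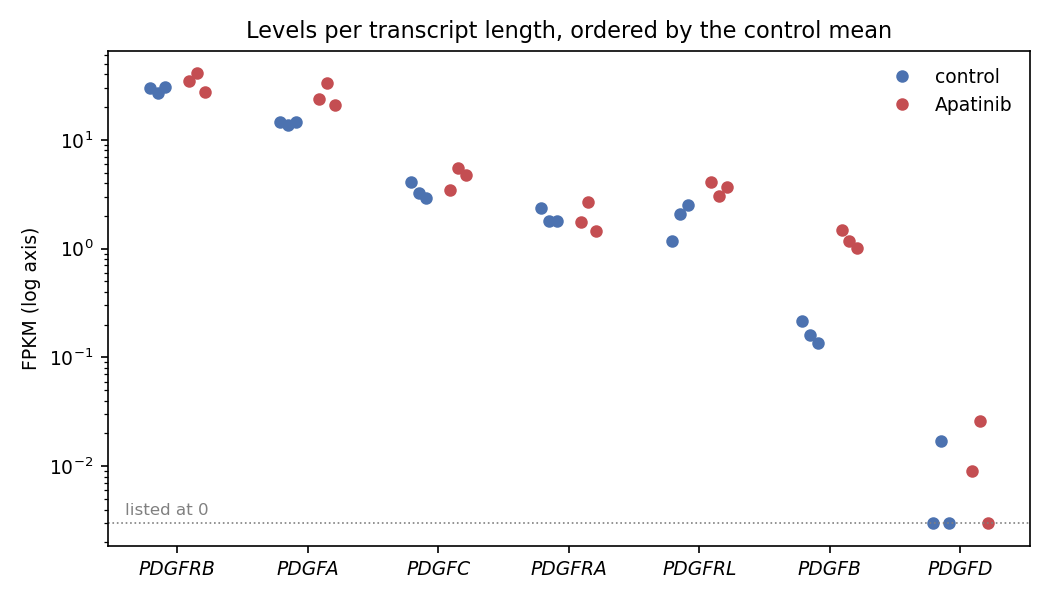
FPKM of each gene (log axis) in the 3 control and the 3 Apatinib replicates, ordered by the control mean, with values listed at 0 drawn on the dotted line. PDGFRB and PDGFA hold the top of the order in both groups, and PDGFB moves from 0.137 to 0.216 FPKM in the control to between 1.00 and 1.48 FPKM with Apatinib.

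The cells thus held transcripts of both receptors and of 3 ligands, with the β receptor well above the α receptor. The ratio of PDGFRB to PDGFRA in FPKM was 12.6, 14.9 and 16.9 in the control replicates and 20, 15.3 and 19.1 with Apatinib, and the groups overlapped. PDGFA made up 79.7% ± 2.80 of the summed FPKM of the 4 ligands in the control and 81.4% ± 2.72 with Apatinib (SD, n = 3 each). The share of PDGFB was 1.15%, 0.956% and 0.776% in the control replicates and 5.15%, 2.97% and 3.78% with Apatinib, so that it was higher in every treated replicate while remaining the smaller part. PDGFC took 19.3% ± 2.65 of the sum in the control and 14.6% ± 3.02 with Apatinib. The sum itself was 17.8 ± 0.908 FPKM in the control and 31.7 ± 7.03 FPKM with Apatinib, a difference that came mainly from PDGFA, whose mean FPKM differed by 11.7 against 1.05 for PDGFB and 1.12 for PDGFC.

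RefSeq promoter windows (build GRCh38.p14, whereas the submitters' processing notes name hg19) were found for 4 of the 7 genes: PDGFA, PDGFD, PDGFRA and PDGFRB. They are shown for the ligand and the receptors whose levels were compared above, as the 250 bases before the transcript start. PDGFA has 4 windows and PDGFRA has 2, and the window of PDGFA with the highest GC content and the PDGFRA window farther upstream are printed, both chosen after the sequences were seen. Capitals mark every match on either strand to the GC box GGGCGG, the EGR motif GCGNGGGCG (which can overlap a GC box), the CCAAT box, the TATA motif TATAA or the AP-1 motif TGANTCA.
PDGFA, chr7:519847-520096, minus strand: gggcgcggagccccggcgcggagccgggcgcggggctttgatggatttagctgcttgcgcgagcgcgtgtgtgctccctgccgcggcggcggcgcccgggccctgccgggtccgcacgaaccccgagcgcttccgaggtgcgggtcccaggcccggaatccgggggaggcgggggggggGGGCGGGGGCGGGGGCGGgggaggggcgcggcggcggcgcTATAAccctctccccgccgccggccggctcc
PDGFRB, chr5:150155846-150156095, minus strand: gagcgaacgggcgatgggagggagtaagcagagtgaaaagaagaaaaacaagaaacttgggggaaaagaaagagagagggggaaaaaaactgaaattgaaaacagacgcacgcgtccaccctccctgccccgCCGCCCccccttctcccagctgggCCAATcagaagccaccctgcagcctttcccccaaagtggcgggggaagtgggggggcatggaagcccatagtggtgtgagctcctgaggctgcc
PDGFRA, chr4:54229043-54229292, plus strand: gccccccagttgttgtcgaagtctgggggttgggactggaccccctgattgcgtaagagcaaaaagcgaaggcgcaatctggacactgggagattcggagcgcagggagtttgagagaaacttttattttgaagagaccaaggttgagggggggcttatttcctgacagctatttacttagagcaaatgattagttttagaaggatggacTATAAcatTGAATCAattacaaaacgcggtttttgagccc
The PDGFA window held 81.6% G and C, more than 98% of the 35116 windows in the table, with 3 GC boxes and 2 overlapping EGR matches in 1 run and a TATAA downstream of it. The PDGFRB window held 58.4% G and C with 1 GC box and 1 CCAAT. The other PDGFRA window held 64% G and C with 2 GC boxes and 1 CCAAT. The printed PDGFRA window held 46.8% G and C, with 1 TATAA and 1 AP-1 match and no GC box. Over all windows of this length, 42.6% held a GC box, 8.41% the EGR motif, 32% CCAAT, 18.9% TATAA and 6.57% the AP-1 motif. A match describes the letters and is not evidence of a bound factor.

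Factors described at PDGF ligand promoters were followed as a list of 10 genes, of which 9 were tested, 1 was called lower and none was called higher, or 11.1% against 11.5% of all tested genes (median log2 fold change -0.09, against 0.0028 over all tested genes). SP3, which binds GC boxes, fell by 0.58 on the log2 scale (SE 0.152, edgeR FDR = 0.0312), with 123 ± 19.3 CPM in the control and 82.0 ± 11.5 CPM with Apatinib (SD, n = 3 each). SP1, the better known factor of the same boxes, was at -0.15 (edgeR FDR = 0.386). EGR1, an early response factor, had 406, 529 and 433 counts in the control and 396, 3146 and 457 with Apatinib. Its high value was that of Apatinib replicate 2 alone (edgeR FDR = 0.0978), and that replicate was also the highest for PDGFA. Whether the levels of EGR1 and PDGFA are linked was not tested. SP3 was called in 7 of the 14 alternative fits, and lost its call when Apatinib replicate 1 or 3 or control replicate 1 or 2 was left out, and with these controls summed.

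Among proteases that process PDGF precursors, 1 of 6 tested genes was called, or 16.7% against 11.5% of all tested genes (median log2 fold change 0.13). PCSK5, a proprotein convertase, rose by 0.82 on the log2 scale (SE 0.171, edgeR FDR = 0.0147), with 5.35 ± 0.238 CPM in the control and 9.44 ± 1.04 CPM with Apatinib (SD, n = 3 each). Its counts were 89, 102 and 116 in the control and 156, 188 and 151 with Apatinib, without overlap. FURIN, the main convertase of the A and B chains, was at 191 CPM in the control and 190 CPM with Apatinib (log2 fold change -0.01, edgeR FDR = 0.97). PLAT, which activates PDGF-CC, was lower in every Apatinib replicate at -0.42 but missed the criteria (edgeR FDR = 0.0527), as did the convertase PCSK6, which was higher in every Apatinib replicate at 0.89 (edgeR FDR = 0.0599). The count of the list was 0 without control replicate 1, without control replicate 2 and with these controls summed. Over all tested genes, these fits called 275 of 16708, 300 of 16698 and 292 of 16731.

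Of 5 extracellular partners, 1 was called, or 20% against the same 11.5% (median 0.13). LRP1, a large endocytic receptor that associates with PDGFRβ, rose by 0.55 on the log2 scale (SE 0.120, edgeR FDR = 0.0175), with 354 ± 10.2 CPM in the control and 517 ± 51.7 CPM with Apatinib (SD, n = 3 each), and was not called without Apatinib replicate 2, without control replicate 1 or 2 or with these controls summed. NRP1, a co-receptor, and SPARC, which binds B chains, had log2 fold changes of -0.20 and 0.09 (edgeR FDR = 0.319 and 0.709).

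Downstream of the receptors, 35 of 36 adaptor and kinase genes were tested, of which 3 were called higher, 3 lower and 29 were not called. The share called was 17.1%, against 11.5% of all tested genes, and the median log2 fold change was -0.02. GRB10, an adaptor that binds activated receptors, rose by 1.25 on the log2 scale (edgeR FDR = 0.0127), with 42.5 ± 7.34 CPM in the control and 101 ± 43.2 CPM with Apatinib (SD, n = 3 each). Its counts were 738, 905 and 766 in the control and 1401, 2662 and 1235 with Apatinib, so replicate 2 was highest here too. STAT5A and the SRC family kinase FYN rose by 0.81 each on the log2 scale (edgeR FDR = 0.0128 and 0.017). PIK3R1, the main regulatory subunit of PI3K, fell by 0.59 on the log2 scale (edgeR FDR = 0.0286), and the SRC family kinase YES1 also fell by 0.59 (edgeR FDR = 0.0401). PIK3R3, a further regulatory subunit, is named because it completes the called genes, and was at -0.53 on the log2 scale (edgeR FDR = 0.0424), with a call in 5 of the 14 alternative fits and none with the replicate block. With control replicates 1 and 2 summed, GRB10 stayed called, and STAT5A, FYN, PIK3R1, YES1 and PIK3R3 were not called. The kinases AKT1 and MAP2K1 had log2 fold changes of 0.04 and 0.03, each with overlapping groups. The number of called genes on this list was 0 without control replicate 1, 1 without control replicate 2 or with these controls summed, 3 without Apatinib replicate 1, 10 without Apatinib replicate 3 and 11 without control replicate 3. Over all tested genes, in the same order, 275 of 16708, 300 of 16698 and 292 of 16731 were called. The later fits called 795 of 16822, 2030 of 16768 and 2594 of 16786, so the total of calls moved with the list. PIK3R2, which was not tested, had at most 1 count in a library but 17.8 to 28.0 FPKM, so its near absence from the counts is not a low level.

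Of 11 genes that limit receptor signalling, 9 were tested and 0 were called by edgeR, against 11.5% of all tested genes, and DESeq2 also called 0 (median 0.07). An unadjusted p under 0.05 was found for 2 of the 9, and for 4979 of all 16290 tested genes. CBL, the ubiquitin ligase that directs activated receptors to degradation, was at 0.12 on the log2 scale (edgeR FDR = 0.578), and the phosphatase PTPN1 at 0.07 (edgeR FDR = 0.72).

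Genes known to be induced by PDGF in fibroblasts formed the list with the most calls in the main fit, 7 against 6 for receptor signalling. The receptor signalling list held more calls without Apatinib replicate 3 (10 against 8) or control replicate 3 (11 against 8). It also held more with the FDR limit alone (8 against 7). Of the 20 PDGF-responsive genes, 19 were tested, of which 6 were called higher and 1 lower, a share of 36.8% against 11.5% of all tested genes, and the median log2 fold change was 0.58. FOS and FOSB are among the genes that the study itself picked from these samples, so their direction is not independent evidence. CYR61 and CTGF, matricellular genes, rose by 2.15 and 2.22 on the log2 scale (edgeR FDR = 3.13e-05 and 3.38e-05). CTGF had 139, 183 and 171 counts in the control and 655, 727 and 721 with Apatinib. FOS rose from 28, 38 and 43 to 240, 242 and 469 counts, or by 3.25 on the log2 scale (edgeR FDR = 0.000315). FOSB, which encodes a partner of JUN proteins like FOS, rose by 3.80 on the log2 scale (edgeR FDR = 0.00148). Its control counts were only 9, 6 and 10, against 61, 93 and 170 with Apatinib, so it passed the low-count filter through the treated group and was not tested with at least 10 counts required in every sample. HAS2, a hyaluronan synthase named because it was the lower gene, fell by 1.22 on the log2 scale (edgeR FDR = 0.0102), from 2377, 2432 and 2173 counts to 610, 1300 and 873. Of the 12 tested genes that were not called, JUN (0.65), DUSP1 (0.58) and PLAUR (0.22) were higher in every Apatinib replicate in CPM (edgeR FDR = 0.0506, 0.0511 and 0.278). In FPKM the groups overlapped for PLAUR. Of the 19 tested genes, 9 were higher and 1 was lower without overlap in CPM, against 17.5% and 15.7% of all tested genes. EGR1 and EGR3 were at 1.65 and 1.10 with overlapping groups (edgeR FDR = 0.0978 and 0.26). EGR3 had 33, 45 and 45 counts in the control and 25, 190 and 28 with Apatinib. As for EGR1, its high value was that of Apatinib replicate 2 alone. MYC, CCL2, CXCL1 and ODC1 had log2 fold changes of 0.08, 0.03, -0.07 and -0.07, all with overlapping groups. The list held 6 to 8 called genes when any 1 replicate was left out.

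**Figure D4:**
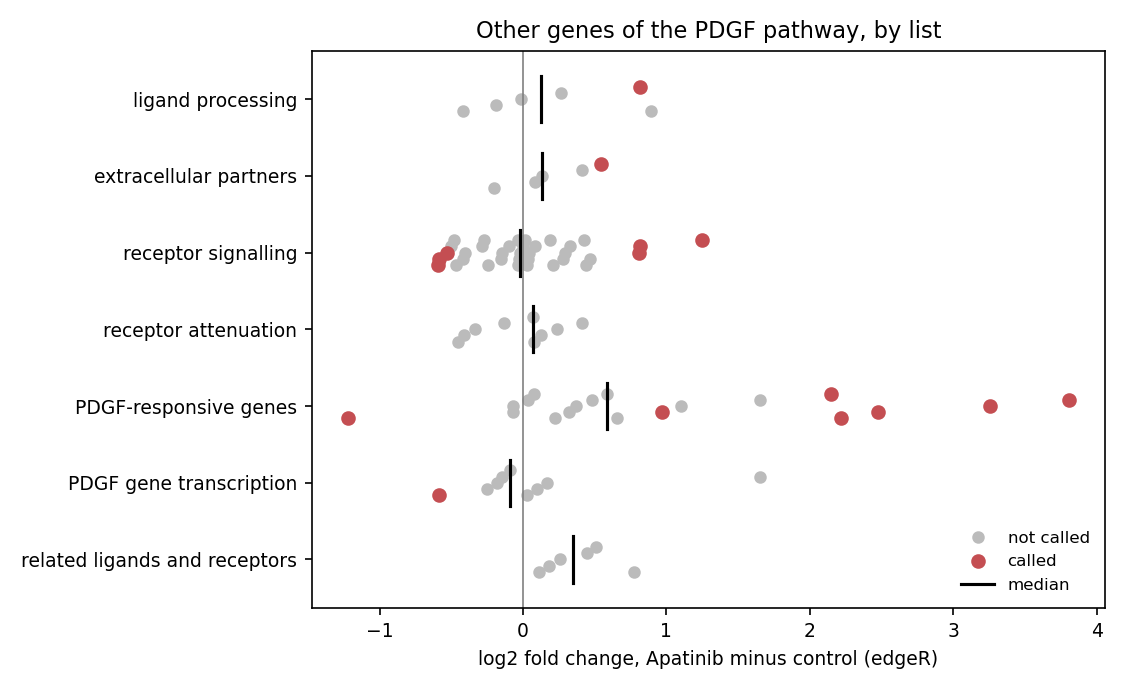
Log2 fold change (Apatinib minus control, edgeR) of each tested gene on the 7 lists of other PDGF pathway genes, with called genes in red, other genes in grey and the list median as a black line. The receptor signalling genes lie around 0 with a median of -0.02, while the PDGF-responsive genes have a median of 0.58 with HAS2 at -1.22 as the 1 called gene that was lower.

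Related ligands and receptors gave 0 called genes of 6 tested by edgeR, against 11.5% of all tested genes, and 1 called gene by DESeq2 (median 0.35). An unadjusted p under 0.05 was found for 3 of the 6, against 4979 of 16290 over all tested genes. In CPM, VEGFA, VEGFC and FLT1 were higher in every Apatinib replicate, at 0.77, 0.44 and 0.26 on the log2 scale (edgeR FDR = 0.0874, 0.0424 and 0.26). Over all tested genes, 17.5% were higher without overlap in CPM. In FPKM the groups overlapped for FLT1. The VEGFA value came mainly from Apatinib replicate 2, with 6369 counts. Apatinib replicates 1 and 3 had 2772 and 2531 counts, and the controls had 2349 to 2604. KDR, which encodes VEGFR-2, had between 4 and 11 counts per library and KIT at most 1, so neither was tested. Against these, PDGFRB had at least 3779 counts in every library.

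The genes most like the called members were found by the root mean square difference in log2 CPM, centred on the control mean, over the 6 libraries. For PDGFB they included MMP17, CSF2RA, CTGF and SCD, with differences of 0.419, 0.438, 0.472 and 0.489. CSF2RA had only 1, 1 and 3 control counts, so its difference depends on the prior count of 2 added for log2 CPM. For PDGFA they were XBP1, COL15A1, YARS, AMOTL2 and NUAK1, with differences of 0.0457, 0.0498, 0.0585, 0.0655 and 0.0737. XBP1, which encodes a factor of the unfolded protein response, had 1776, 1832 and 2155 counts in the control and 2868, 3984 and 2528 with Apatinib. It shared with PDGFA the highest value in Apatinib replicate 2 and the lowest of the group in replicate 3. The likeness is a description over 6 libraries.

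Markers of cell types that make or receive PDGF were also counted. Of 5 megakaryocyte markers, PPBP and GP9 were at 0 in all libraries and PF4 had at most 1 count, and the list summed to 10.3 to 13.8 CPM in the control and 11.9 to 13.0 CPM with Apatinib. That sum came almost wholly from ITGA2B and GP1BA. ITGA2B had 129 to 232 counts per library with overlapping groups (log2 fold change 0.22, edgeR FDR = 0.457). GP1BA had 38 to 69 counts and was lower in every Apatinib replicate (-0.51, edgeR FDR = 0.132). Of 5 macrophage markers, PTPRC and CD163 were at 0 counts, and the list summed to 4.68 to 6.18 CPM in the control and 3.55 to 4.85 CPM with Apatinib. Most of the sum was CD14, at 4.76 CPM in the control and 3.30 CPM with Apatinib. CD14 was lower in every Apatinib replicate (log2 fold change -0.53, edgeR FDR = 0.156), and CSF1R overlapped (0.18, edgeR FDR = 0.804). CD68, also on that list, had at most 1 count but 1.79 to 3.30 FPKM in the control and 6.78 to 11.8 FPKM with Apatinib. The 5 endothelial markers with a row summed to 29.3 to 33.0 CPM in the control and 29.9 to 35.5 CPM with Apatinib. On that list EMCN was at 0, CDH5 fell by 1.22 and VWF rose by 1.52 on the log2 scale (edgeR FDR = 0.0242 and 0.0386), each with no call without control replicate 1 or 2. CDH5 also lost its call without Apatinib replicate 1 or control replicate 3, and VWF without Apatinib replicate 1 or 3. The more abundant TEK and TIE1 were at 0.13 and -0.01 with overlapping groups (edgeR FDR = 0.64 and 0.961). VWF had 9, 12 and 27 counts in the control and 49, 22 and 53 with Apatinib, and was not tested with at least 10 counts required in every sample. Mural cell markers, which go with PDGFRβ in vessels, summed to 162 to 186 CPM in the control and 230 to 300 CPM with Apatinib. NOTCH3 and CSPG4 rose by 0.80 and 0.58 (edgeR FDR = 0.00776 and 0.0194) and neither was called without control replicate 1 or 2, while KCNJ8 was at 0. The other tested mural markers, RGS5 and ACTA2, were at -0.69 and 0.54 on the log2 scale with overlapping groups (edgeR FDR = 0.345 and 0.302), and DES and ABCC9 had at most 5 counts in a library. The 3 epithelial markers summed to no more than 1.37 CPM in any library. The part of these markers in the results was not tested.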

How the data were processed

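RNA of 3 Apatinib and 3 control replicates of SW872 cells was sequenced on an Illumina platform. The authors deposited a table of counts per gene, as unnormalized whole numbers, together with per-sample FPKM values that the authors scaled to transcript length and mapped fragments. The submitters' processing notes name CASAVA, STAR 2.7.1a and hg19. The counting and FPKM programs are not given in the sources used here. The FPKM table of Apatinib replicate 1 also holds 1 further column, headed with the name of control replicate 3, which was not used. Some genes, such as PIK3R2 and CD68, are near 0 in the counts but not in the FPKM values, and how reads in overlapping genes were counted is not given in the sources used here.

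Differences in counts were tested by edgeR 4.0.16 under R 4.3.3 (filterByExpr, TMM, quasi-likelihood test, Benjamini-Hochberg adjustment), which was checked on simulated data. The SE is the size of the log2 fold change divided by the square root of F. The study used DESeq2 and states the same FDR and fold change limits. A prior count of 2 was added for log2 CPM. The study calls its replicates biological. The 7 genes and all lists were chosen with earlier results of these data known. Named genes were the 7 members, the called genes of each list (the 5 with the smallest p where there were more) and the 5 genes nearest to each called member, some of which are not reported here. PIK3R2 has 2 rows, and the one with the higher FPKM was used. PECAM1 had no row by that symbol. Alternatives were DESeq2 1.42.0, RLE factors, a filter of 1 count in total, a filter of 10 counts in every sample, a replicate block, each replicate left out, control replicates 1 and 2 summed, an FDR limit alone, and limma 3.58.1 for genes averaging above 0.5 FPKM, on the log2 scale after adding 1 or 0.1. Fold changes on that scale are smaller for low genes.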

Additional observations from a re-analysis of the deposited data

How the results depend on the processing

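No called member changed its direction under any alternative. Of the 84 alternative fold changes of the 6 tested members, 82 moved by less than 1 SD of the replicates, and the others were those of PDGFB on the FPKM scales (0.92 and 2.28). With 3 replicates in a group, leaving 1 out can hardly move a fold change that far. The other fits to the counts also reuse the same counts, so the 82 are no measure of stability. With control replicates 1 and 2 summed, 1 member was called in place of 2, and the ligand processing, extracellular partner, receptor signalling and PDGF gene transcription lists held 0, 0, 1 and 0 called genes. With no filter on low counts, the ligand processing, PDGF-responsive, PDGF gene transcription and related lists held 2, 11, 2 and 2, and with at least 10 counts in every sample the ligand processing list held 2. With limma on log2(FPKM + 1) or log2(FPKM + 0.1), the receptor signalling list held 1 and the transcription list 0. The related list held 1 with DESeq2 and 1 with the FDR limit alone. With 1 replicate left out, called members ranged from 1 to 3, and called genes from 0 to 1 (ligand processing, attenuation, transcription and related lists), 0 to 2 (extracellular partners), 0 to 11 (receptor signalling) and 6 to 8 (PDGF-responsive). Without control replicates 1, 2 and 3 in turn, 275 of 16708, 300 of 16698 and 2594 of 16786 tested genes were called. Without Apatinib replicates 1, 2 and 3 in turn, the counts were 795 of 16822, 1493 of 16762 and 2030 of 16768. With control replicates 1 and 2 summed, 292 of 16731 were called, against 1866 of 16290 in the main fit. Without the filter 2559 of 32596 were called, with at least 10 counts in every sample 1780 of 14860. By limma 796 and 810 of 15829 were called. The list counts above are to be read beside these totals. The number of neighbouring levels that were apart was 5 in the control, 3 in the Apatinib group, and 5 to 6 with 1 control left out. Samples with the same replicate number did not deviate together (correlations -0.259, 0.0808 and -0.22). With the replicate block, 2215 genes in all were called in place of 1866, PDGFRL became the third called member, the transcription list held 2 called genes, the related list 1, and no other list count moved by more than 1.5 times. The causes of these differences were not tested, except that the pseudocount of 1 compresses low FPKM values. Depth limits PDGFD, which was under 3 counts throughout, and the control level of PDGFB.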
